A study of Mus musculus with 7 samples.

Results

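The Eph, ephrin and netrin guidance genes are 33 of the 19938 mouse genes that could be named by 1 symbol on the arrays. They comprise 13 Eph receptors, 8 ephrins, the 3 netrins Ntn1, Ntn4 and Ntng1, the 6 receptors Dcc, Neo1 and Unc5a to Unc5d, and the 3 ligands Rgma, Rgmb and Draxin. They were chosen by gene name and family, and for a gene with several probe sets the one brightest on average across the 7 arrays stands for it. Ephb2 and Ntng2 were not analysed here. Expression was measured in 3 Trnp1 knockdown samples and 4 control samples (genotype labelled WT) of strain C57BL/6, each on 1 array. Constructs that also encode green fluorescent protein were electroporated into cortices at embryonic day 13, and fluorescent cells were sorted 24 h later, at embryonic day 14. Every sample therefore holds transfected, sorted cells, but the labels do not name the knockdown or control construct, its promoter or the number of embryos pooled. The labels call the samples biological replicates without saying that they came from separate litters, so the p-values measure the spread between these samples.

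Ephrins and netrins are cues that steer growing axons and migrating cells. A-class ephrins are anchored to the membrane by a lipid and bind mainly EphA receptor tyrosine kinases, while B-class ephrins cross the membrane and bind mainly EphB receptors. Netrins attract axons through Dcc and repel them through Unc5 receptors, and the repulsive guidance molecules Rgma and Rgmb bind neogenin, the product of Neo1. In the developing cortex these systems act in progenitors, in migrating neurons and in the axons that leave the cortex, and several of them also pattern blood vessels.

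Trnp1, the target of the knockdown, had log2 levels of 4.80, 4.85 and 4.55 in knockdown samples, against 5.07, 5.0, 5.24 and 5.22 in controls. All knockdown arrays were below all control arrays, a difference of -0.40 (SE 0.12) and p = 0.0286 by the exact two-sided permutation test of the absolute difference, the smallest that the 35 splits allow and the value that any gene with groups apart in this way can reach (3.07% of all genes were lower without overlap). Its adjusted p over all genes was 0.825 by limma, as for the members below. The arrays also differed in markers of cell types that were not the target of the sort. All values of a marker list are means over its genes of the array's log2 level minus the control mean. The 12 endothelial and mural markers stood at 2.06, 0.97 and -0.04 in knockdown replicates 1 to 3 and at -0.46, -0.37, -0.63 and 1.47 in controls 1 to 4. The 7 markers of GABA neurons stood at 2.39 in knockdown replicate 2, and between -0.19 and 0.56 in every other array. The 12 neuronal markers stood at 0.74 in knockdown replicate 3 and at -0.31 in replicate 1, while 12 radial glia markers stood at -0.33 in replicate 3 and -0.42 in control replicate 4. The 22 glycolysis and hypoxia genes stood at 0.97, -0.07 and 0.74 in the knockdown arrays and between -0.07 and 0.20 in controls, with 20 higher and 2 lower. All 23 measured genes of the G2 and M phases had lower means in knockdown samples (median difference -0.525), at -1.22, 0.20 and -0.62 in the knockdown arrays and -0.56, 0.32, 0.44 and -0.20 in controls. Red blood cell markers (7 measured, median difference 0.665) stood at 0.01, 0.77 and 0.59 in knockdown arrays and at -0.15, -0.14, -0.28 and 0.56 in controls. Defining markers of the cortical cells, Pax6 and Sox2 of radial glia (knockdown means 8.11 and 9.08, control means 8.08 and 9.08) and Tbr1 and Dcx of neurons (knockdown means 9.92 and 9.40, control means 10.32 and 9.92), were all bright. Of the 12 neuronal markers 7 were higher and 5, Tbr1 and Dcx among them, lower (median 0.131), and 1, Nefl, was dim. Of the 12 radial glia markers 5 were higher and 7 lower (median -0.0107), with differences from -0.47 for Prom1 to 0.29 for Vim.

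No guidance gene passed the test over all genes. Of the 33 members, 0 had an adjusted p under 0.05 by limma with Benjamini-Hochberg adjustment, as did 0% of all genes. The smallest adjusted p was 0.825 among the members and 0.736 among all genes, so each difference below is a measured value and not a call. By direction, 16 members were higher and 17 lower in knockdown samples, with a median difference of -0.0333, beside -0.001 over all genes. By size, 21 of the 33 differed by less than 0.25 log2 units. At 0.5 log2 units or more 4 members were higher, 12.1% of the 33, where 3.60% of all genes were, and 2 were lower, 6.06%, where 4.88% of all genes were.

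At an unadjusted p under 0.05 by limma, 3 members were higher (9.09%), namely Ntn1, Unc5b and Unc5c, where 2.20% of all genes were higher by that measure. Below control at the same p were 2 members (6.06%), Efnb2 and Unc5d, where 3.61% of all genes were. Groups did not overlap for 1 higher member, Ntn1, and 1 lower member, Efnb2. Each is 3.03% of the members, near the background of 2.59% of all genes for higher and 3.07% for lower. With fewer arrays overlap is rarer. The count was 5 lower without control replicate 4 (5.67% of all genes), 4 lower and 3 higher without knockdown replicate 2 (11.1% and 9.73% of all genes, near the members' shares), and 3 lower without control replicate 2 (4.16% of all genes). The counts at the unadjusted p also hung on single arrays. Leaving out control replicate 2 or 3 left 1 higher (1.78% and 1.51% of all genes). Leaving out control replicate 4 gave 4 lower (3.62% of all genes). Leaving out knockdown replicate 1 or 3 or control replicate 1 or 3 gave 1 lower (2.35%, 2.39%, 3.39% and 2.53% of all genes). Both counts also moved with scaling, to 1 higher and 4 lower with equal array medians, which shifts the median of all genes to -0.107 and calls 0.918% of all genes higher and 7.56% lower. A further quantile normalization gave 1 higher and 1 lower (1.84% and 4.02% of all genes), and cyclic loess normalization gave 3 higher and 0 lower (2.42% and 2.91%).

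**Figure D1:**
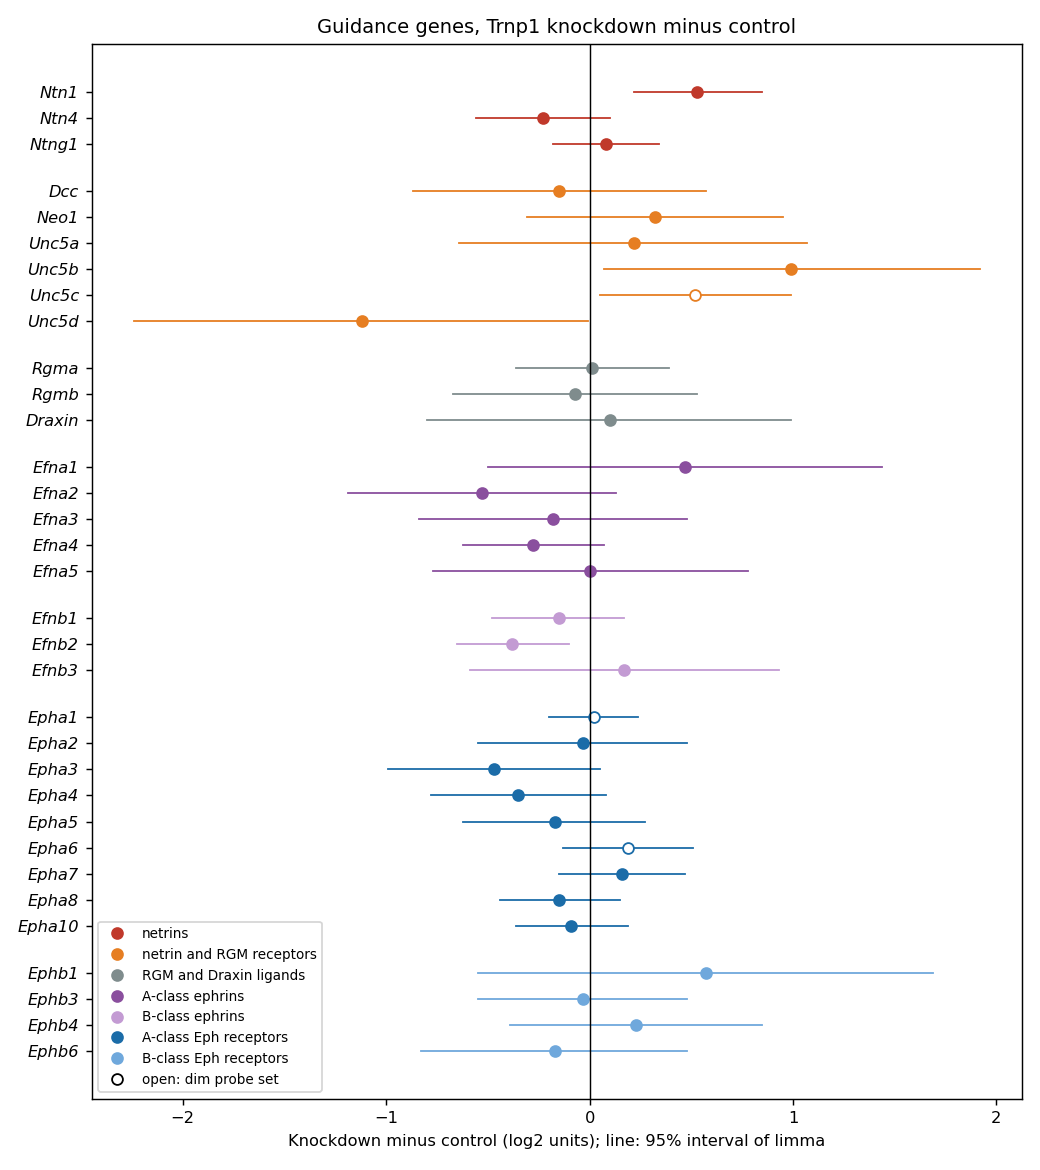
Difference of each of the 33 guidance genes between Trnp1 knockdown (n = 3) and control (n = 4) arrays in log2 units, with limma's 95% interval, grouped by role and coloured by class. Open circles are dim probe sets; 28 of the 33 intervals include 0, and those of Ntn1, Unc5b, Unc5c, Unc5d and Efnb2 do not.

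Of the netrins, Ntn1 was the member with the smallest p. Ntn1 (Entrez 18208) encodes netrin-1, the secreted cue that attracts axons through Dcc and repels them through Unc5 receptors. Its log2 levels were 5.82, 5.81 and 5.68 in knockdown arrays, against 5.30, 5.09, 5.07 and 5.49 in controls. The knockdown arrays lay close together and all above the brightest control, control replicate 4. The means were 5.77 ± 0.0783 (SD, n = 3) and 5.24 ± 0.201 (SD, n = 4), a difference of 0.53 (SE 0.14, 95% interval 0.22 to 0.85) or 1.45-fold, with an adjusted p of 0.825 by limma. It stayed between 0.48 and 0.62 with any 1 array left out, and genes of like level had a median difference of 0.02. With equal array medians it was 0.43 and the groups overlapped. The part of the marker, cell cycle and hypoxia lists given above in this difference was not tested.

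Ntn4, a netrin of basement membranes, had a lower mean in knockdown arrays. Its log2 levels were 5.76, 5.63 and 5.56 in knockdown arrays, against 5.96, 6.04, 5.96 and 5.57 in controls, a difference of -0.23 (SE 0.14). The overlap came from control replicate 4 alone, and without it the difference was -0.34. Ntng1, which encodes netrin-G1, a membrane-anchored relative that does not bind Dcc, differed by 0.08 (SE 0.11). Its dimmer second probe set gave -0.04 (SE 0.09), so neither showed a difference beyond its error.

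Unc5b (Entrez 107449), a netrin receptor also known from endothelial cells of growing vessels, had the largest difference upward. Its log2 levels were 6.49, 5.28 and 5.20 in knockdown arrays, against 4.39, 4.36, 4.46 and 5.45 in controls. Controls 1 to 3 were lower than every knockdown array, but control replicate 4 lay above knockdown replicates 2 and 3. The means were 5.65 ± 0.723 (SD, n = 3) and 4.66 ± 0.526 (SD, n = 4), a difference of 0.99 (SE 0.40, 95% interval 0.07 to 1.92) or 1.99-fold, with an adjusted p of 0.825 by limma. The 2 arrays with the highest Unc5b, knockdown replicate 1 and control replicate 4, were also the 2 with the highest endothelial and mural markers. In that list 11 of 12 markers were higher in knockdown samples, their summed log2 level ran from 58.5 to 83.7 in knockdown arrays and from 51.3 to 76.6 in controls, and no marker was dim. Without both arrays, a comparison added after the data were seen, Unc5b differed by 0.84, and the endothelial and mural markers of the arrays left stood at 0.97 and -0.04 in knockdown and at -0.46, -0.37 and -0.63 in controls. Without knockdown replicate 1 alone Unc5b differed by 0.58. The markers' part in the result was not tested. In bulk samples, fewer cells of a type and less RNA per cell cannot be told apart.

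**Figure D2:**
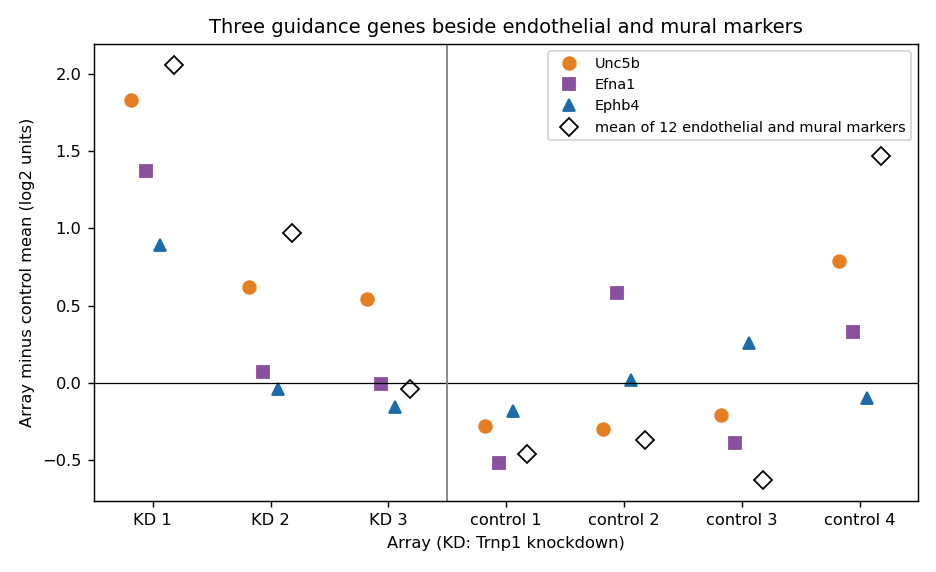
Log2 level of Unc5b, Efna1 and Ephb4 in each array minus the control mean, beside the mean of 12 endothelial and mural markers on the same scale; knockdown (KD) arrays are left of the line. All 4 values are highest in knockdown replicate 1, and Unc5b stands at 0.62 and 0.54 in the other knockdown arrays, above controls 1 to 3. In control replicate 4, where the markers stand at 1.47, Unc5b stands at 0.79, Efna1 at 0.33 and Ephb4 at -0.10. Efna1 is higher in control replicate 2 (0.58), where the markers stand at -0.37.

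Unc5d (Entrez 210801) was lower in knockdown samples and had the largest difference of all members. It encodes a repulsive receptor expressed by multipolar migrating cells of the subventricular zone and by upper layer neurons. Its log2 levels were 6.88, 7.49 and 6.42 in knockdown arrays, against 8.19, 7.03, 7.88 and 9.09 in controls. Knockdown replicates 1 and 3 lay below all controls, and replicate 2 lay above control replicate 2. The means were 6.93 ± 0.537 (SD, n = 3) and 8.05 ± 0.853 (SD, n = 4), a difference of -1.12 (SE 0.48, 95% interval -2.24 to -0.01) or 2.18-fold, with an adjusted p of 0.825 by limma. A second probe set of Unc5d held the same direction with less spread. It gave 6.26, 6.32 and 5.78 in knockdown arrays, against 7.29, 6.51, 6.80 and 7.39 in controls, with all knockdown arrays below all controls (-0.88, SE 0.25, adjusted p = 0.819 by limma over every probe set). Both probe sets belong to 1 gene and share the samples, so they are not separate replicates. Control replicate 4 carried part of the size, and without it the first probe set differed by -0.77. The 9 markers of intermediate progenitors, cells of the same zone, stood at 0.15, -0.43 and -0.08 in the knockdown arrays. They stood at -0.15, 0.21, 0.10 and -0.16 in controls, with 3 higher and 6 lower in knockdown samples (median -0.149). Their part in the Unc5d result was not tested.

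Unc5c, another repulsive receptor, was higher in part of the knockdown arrays at a level where the array measures little. Its log2 levels were 3.70, 4.17 and 4.5 in knockdown arrays, against 3.73, 3.34, 3.64 and 3.69 in controls (0.52, SE 0.20, adjusted p = 0.825 by limma). Knockdown replicate 1 lay within the controls. The probe set is dim, which here means a mean level at or below 3.94, the 95th percentile of 1238 olfactory, vomeronasal and hair protein genes that the cortex hardly uses. RMA, the authors' normalization, compresses differences at such levels. Without knockdown replicate 3, the array with the highest neuronal markers, the difference was 0.33.

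Unc5a had log2 levels of 6.25, 5.12 and 6.61 in knockdown arrays, so that knockdown replicates stood on both sides of the controls (5.43 to 6.11). The difference was 0.22 (SE 0.37), and it changed to -0.09 without knockdown replicate 3. Among the 4 Unc5 receptors, then, 2 were higher and 1 lower at an unadjusted p under 0.05, where 2.20% and 3.61% of all genes were. Of the 2 higher, Unc5c is dim. At the probe sets used, the groups of every Unc5 receptor overlapped, and Unc5a did not differ beyond its spread.

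Dcc and Neo1 were bright and did not differ beyond their spread. Dcc had 8.38, 9.08 and 9.0 in knockdown arrays, against 9.69, 9.0, 8.55 and 8.64 in controls (-0.15, SE 0.31, 95% interval -0.87 to 0.57). The extremes were knockdown replicate 1 at the bottom and control replicate 1 at the top, and the sign turned without either (0.072 and 0.09). Neo1, which encodes neogenin, had 8.74, 8.66 and 9.66, against 8.37, 8.89, 8.63 and 8.92 in controls (0.32, SE 0.27). Its higher mean rested on knockdown replicate 3 alone, without which the difference was -0.0025.

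The 3 further ligands showed no common shift. Rgma, a membrane-anchored repulsive cue for neogenin, differed by 0.01 (SE 0.16, 95% interval -0.36 to 0.39) and had its knockdown arrays within 7.33 to 7.45. Rgmb, its relative and a co-receptor for bone morphogenetic proteins, differed by -0.07 (SE 0.26). Draxin, a secreted repellent that binds Dcc and netrin-1, had 6.45, 6.20 and 7.44 in knockdown arrays, against 7.21, 5.93, 6.81 and 6.45 in controls. The Draxin difference of 0.10 (SE 0.38) turned to -0.28 without knockdown replicate 3 and -0.13 without control replicate 2, and the signs of Rgma and Rgmb also turned when 1 array was left out.

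**Figure D3:**
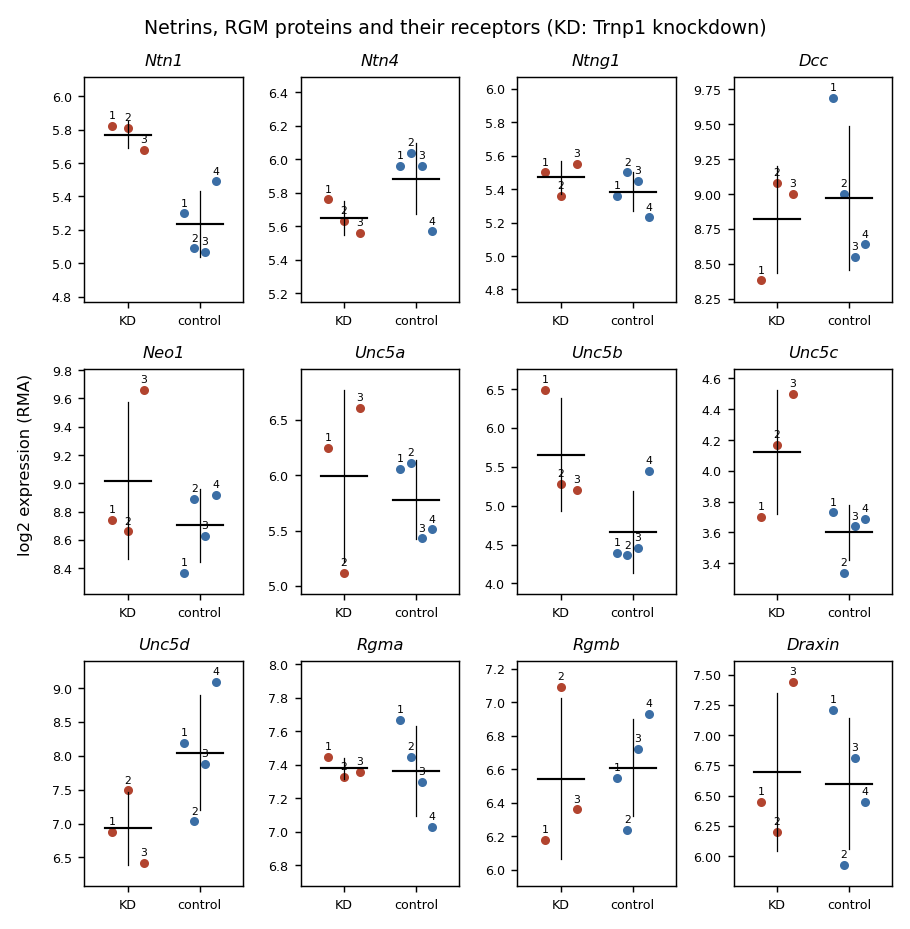
Log2 level of the 12 netrins, RGM proteins, Draxin and their receptors in each array, knockdown (KD, n = 3) left of control (n = 4); digits are replicate numbers, horizontal lines means and vertical lines 1 SD. Ntn1 has all KD arrays above all controls, and the groups of the other 11 genes overlap.

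Among the ephrins, Efnb2 had the smallest p. Efnb2 (Entrez 13642) encodes ephrin-B2, a transmembrane ligand of EphB receptors and EphA4 that cortical progenitors and arterial endothelium make. Its log2 levels were 10.13, 10.09 and 9.94 in knockdown arrays, against 10.47, 10.31, 10.61 and 10.32 in controls. All knockdown arrays were below all controls. The means were 10.05 ± 0.101 (SD, n = 3) and 10.43 ± 0.140 (SD, n = 4), a difference of -0.38 (SE 0.12, 95% interval -0.65 to -0.10) or 1.3-fold, with an adjusted p of 0.825 by limma. With 1 array left out it stayed between -0.42 and -0.32. Bright genes had a lower mean in knockdown samples, with a median difference of -0.19 among genes within 0.5 log2 units of Efnb2. Not every knockdown array shared this shift. Genes above a level of 8 stood at medians of -0.17, 0.02 and -0.31 from the control mean in knockdown replicates 1 to 3. Efnb2 stood at -0.30, -0.34 and -0.49 in the same arrays. Cyclic loess normalization gave -0.25 for Efnb2. Endothelial markers stood above the control mean in knockdown replicates 1 and 2 and near it in replicate 3, and their part in the Efnb2 difference was not tested.

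Among the members at an unadjusted p under 0.05 that are not dim, Efnb2 and Unc5b have an entry in the RefSeq promoter table and are shown by the 250 bases before their annotated start (GRCm38.p6, both on the minus strand, written 5′ to 3′ along the gene). Ntn1 and Unc5d have no entry used here. Capitals mark GC boxes, GGGCGG or its reverse complement CCGCCC, the motif bound by Sp1 family factors.
Efnb2 promoter: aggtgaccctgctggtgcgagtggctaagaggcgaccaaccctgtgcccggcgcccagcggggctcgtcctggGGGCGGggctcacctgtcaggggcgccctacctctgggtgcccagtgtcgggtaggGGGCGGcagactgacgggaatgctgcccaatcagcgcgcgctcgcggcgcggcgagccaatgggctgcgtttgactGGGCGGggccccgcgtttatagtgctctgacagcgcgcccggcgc
Unc5b promoter: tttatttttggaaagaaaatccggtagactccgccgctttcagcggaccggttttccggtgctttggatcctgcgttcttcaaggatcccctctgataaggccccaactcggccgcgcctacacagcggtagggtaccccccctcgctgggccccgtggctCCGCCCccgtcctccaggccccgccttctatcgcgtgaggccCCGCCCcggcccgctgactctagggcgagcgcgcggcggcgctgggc
The Efnb2 window is chr8:8661243-8661492 and holds 3 GC boxes, and the Unc5b window is chr10:60831582-60831831 and holds 2. Both are rich in G and C (72% and 66.8%, beside a median of 52.4% over 32851 promoter windows). The 28 members with an entry have 33 windows, of which 27 hold a GC box (81.8%), where 32.7% of all windows do. Neither window held CAGATG or CATCTG, an E-box that proneural factors bind, or ACGTG or CACGT, the core of hypoxia response elements. The E-box letters occurred in 3 of the 33 windows (9.09%, against 14.4% of all windows) and the hypoxia core in 6 (18.2%, against 16.6%). A match is a description of the letters and not a measured site.

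Efnb1 and Efnb3, the other B-class ephrins, had 95% intervals that include 0 (-0.48 to 0.17 and -0.59 to 0.93). Efnb1 differed by -0.15 (SE 0.14), and by -0.023 after cyclic loess normalization. Efnb3 had 6.00, 5.81 and 7.07 in knockdown arrays, against 6.60, 5.99, 5.96 and 5.95 in controls. Its difference of 0.17 (SE 0.32) came from knockdown replicate 3, without which it was -0.22.

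A-class ephrins had differences of both signs. Efna2, which helps to map axons in the visual system, had 6.72, 6.81 and 5.88 in knockdown arrays, against 7.29, 6.58, 7.30 and 6.84 in controls (-0.53, SE 0.28, 95% interval -1.19 to 0.13). Knockdown replicate 3 was the lowest array, and without it the difference was -0.24. Efna4 differed by -0.28 (SE 0.15), and by -0.13 without the same array. Efna1, an ephrin of endothelium and of growing tissues, had 6.41, 5.11 and 5.03, against 4.52, 5.62, 4.65 and 5.37 in controls (0.47, SE 0.41). Only knockdown replicate 1, the array with the highest endothelial and hypoxia values, lay above all controls, and without it Efna1 differed by 0.028. Efna5, a repulsive cue for thalamic and cortical axons, had 4.20, 5.75 and 5.13 in knockdown arrays, against 4.79 to 5.17 in controls. Its mean difference was 0.00 (SE 0.33) although knockdown replicates 1 and 2 lay 1.55 log2 units apart on both sides of the controls. Efna3 differed by -0.18 (SE 0.28), and its highest value, 4.96, was in control replicate 1.

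Epha3, Epha4 and Epha5, with mean levels over 8, had lower means in knockdown arrays, none past the test. Genes of like level were lower too, with median differences of -0.18, -0.17 and -0.15. By array, genes above a level of 8 were lower in knockdown replicates 1 and 3 (medians -0.17 and -0.31) and not in replicate 2 (0.02). Epha3 had 8.92, 9.38 and 8.53 in knockdown arrays, against 9.42, 9.71, 9.38 and 9.14 in controls (-0.47, SE 0.22, 95% interval -0.99 to 0.05). Its knockdown replicate 2 lay among the controls, and without knockdown replicate 3 the difference was -0.26. Epha4, a receptor of both ephrin classes that is abundant in cortical progenitors and neurons, had 8.78, 8.78 and 8.67, against 9.54, 9.09, 8.98 and 8.76 (-0.35, SE 0.18). The knockdown arrays of Epha4 lay close together, and of the controls only replicate 4 reached them. Without control replicate 1 the Epha4 difference was -0.20. Epha5 differed by -0.17 (SE 0.19), near the median of genes of like level, with its lowest value, 7.86, in knockdown replicate 2, and the sign turned without that array (0.0077).

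The remaining EphA receptors differed by at most 0.19 log2 units in size. Epha7, which marks boundaries of cortical areas, had all knockdown arrays between 6.29 and 6.64 and controls between 6.09 and 6.38 (0.16, SE 0.13). Epha8 and Epha10 differed by -0.15 (SE 0.13) and -0.09 (SE 0.12), and the second probe set of Epha10 gave -0.08 (SE 0.13). Epha2 differed by -0.03 (SE 0.22), with control replicate 4 highest at 5.27. Epha1 and Epha6 are dim and differed by 0.02 (SE 0.09) and 0.19 (SE 0.14), and Epha6 was highest in knockdown replicate 3.

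Of the EphB receptors, Ephb1 had the largest difference and 1 array made it. Ephb1, a receptor that guides retinal and forebrain axons, had 3.67, 4.04 and 5.79 in knockdown arrays, against 3.94, 3.80, 3.70 and 4.29 in controls (0.57, SE 0.48). Knockdown replicate 3 lay 1.5 log2 units above the next array, and without it the difference was -0.078. The second probe set of Ephb1, dim at a mean level of 3.79, showed the same array at 5.25 and every other between 3.26 and 3.99. The first had a mean level of 4.18 over all arrays and 3.93 in controls, near the dim cut-off of 3.94. Ephb4, the venous endothelial partner of ephrin-B2, was likewise high in a single array, 6.24 in knockdown replicate 1, with 5.31 and 5.19 in the other knockdown arrays and 5.17 to 5.61 in controls (0.23, SE 0.26, and -0.10 without that array). Ephb6, which lacks kinase activity, and Ephb3 differed by -0.17 (SE 0.28) and -0.03 (SE 0.22), and both had their highest value in control replicate 1.

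**Figure D4:**
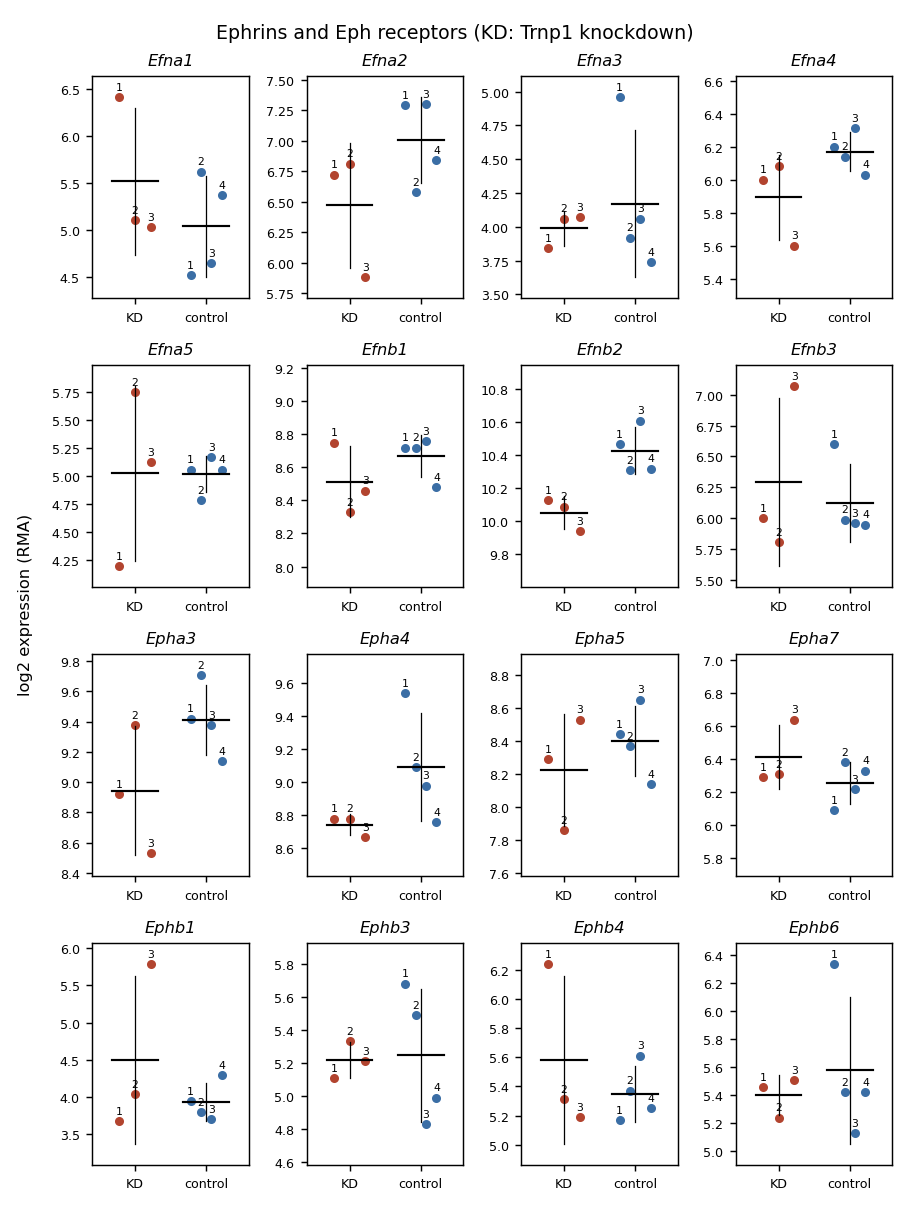
Log2 level of the 8 ephrins and of 8 Eph receptors in each array, knockdown (KD, n = 3) left of control (n = 4); digits are replicate numbers, horizontal lines means and vertical lines 1 SD. Efnb2 alone has groups that do not overlap, and Ephb1, Ephb4, Efna1, Efna5, Efnb3 and Epha7 each have 1 KD array above the rest.

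From the lowest to the highest of the 7 arrays, the level of 16 of the 33 guidance genes spanned over 1 log2 unit. The median range was 0.91 over the members, beside 0.688 over all genes. The widest were Unc5d (2.67), Unc5b (2.13) and Ephb1 (2.12), and the narrowest was Epha1 (0.13). Knockdown replicate 3 was the highest array for 9 members (27.3%, where it was highest for 19.7% of all genes), among them Ephb1, Neo1, Efnb3, Unc5a, Unc5c and Draxin. It was the lowest for 7 (21.2%, where it was lowest for 17.3% of all genes), among them Unc5d, Epha3, Epha4, Efna2 and Efnb2. That array had the highest neuronal markers and the second highest glycolysis and hypoxia values. It also had the highest array median (4.61), the lowest median correlation with the other arrays (0.943) and the lowest limma array weight (0.615). Its genes at levels of 4 to 6 stood at a median of 0.06 from the control mean, and those above 8 at -0.31. Knockdown replicate 1 was highest for 4 members (12.1%, beside 17.0% of all genes), of which Unc5b, Efna1 and Ephb4 exceeded the next array by 0.5 log2 units or more. Knockdown replicate 2, which carried the GABA neuron markers, was highest for 2, Efna5 and Rgmb (6.06%, beside 9.59% of all genes). Control replicates 1 and 3 were highest for 7 members each (21.2%, beside 14.9% and 12.3% of all genes). Of those of control replicate 1, Ephb6, Efna3 and Dcc exceeded the next array by 0.5 log2 units or more. The part of these cell type, metabolic and array-wide differences in the members' values was not tested.

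**Figure D5:**
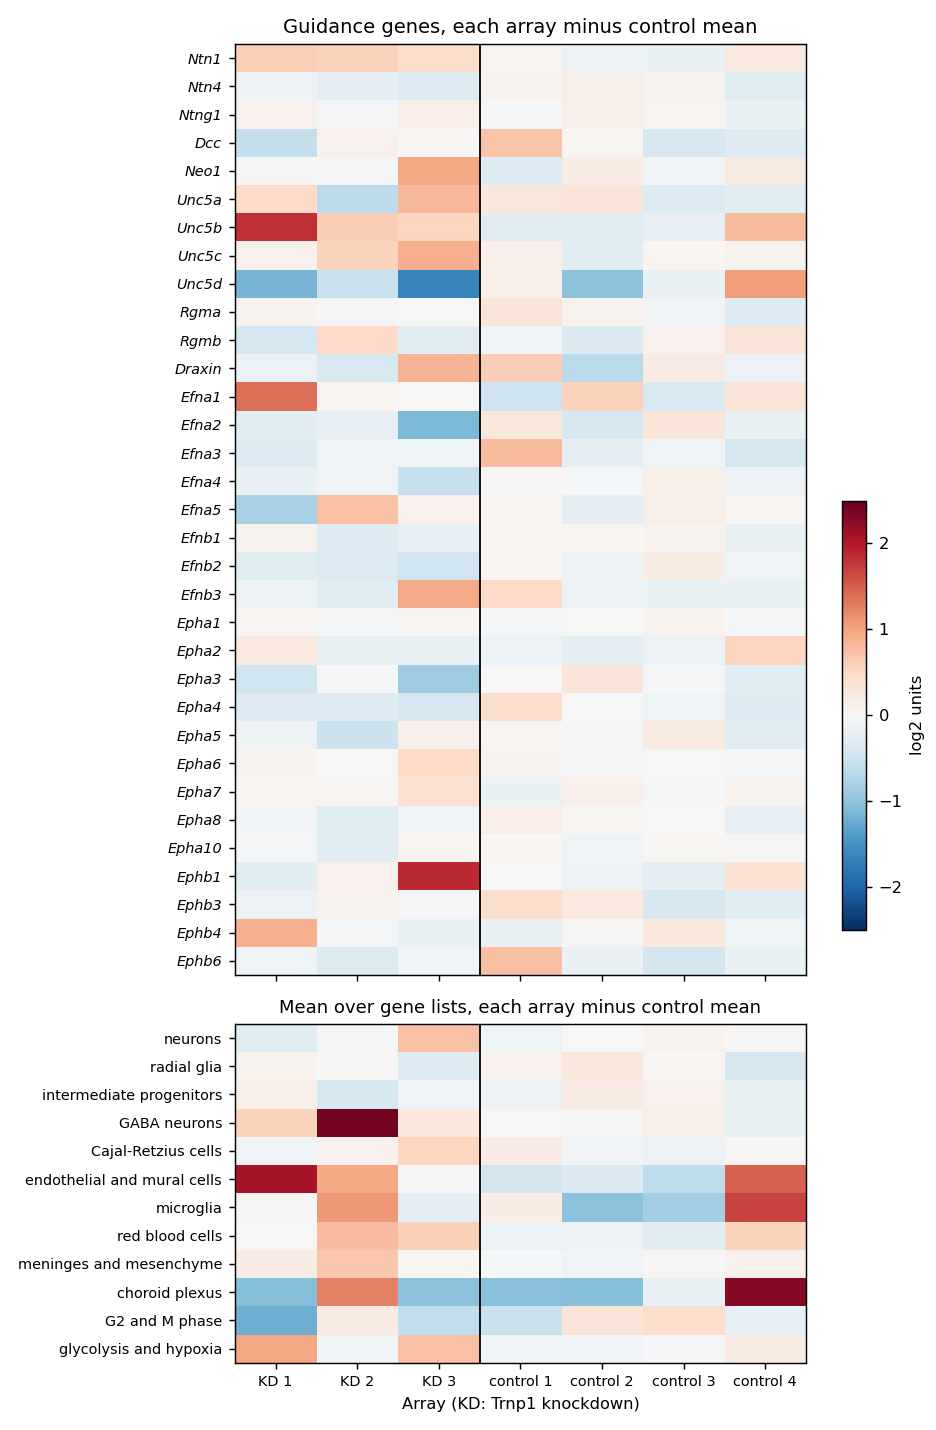
Log2 level of each guidance gene (upper block) and mean of marker and other gene lists (lower block) in each array minus the control mean, knockdown (KD) arrays left of the line. Ntn1 is higher and Efnb2 lower in all 3 KD arrays, whereas Ephb1, Efnb3 and Neo1 are high in KD 3 and Efna1 and Ephb4 in KD 1.

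Genes of the signalling of these receptors, among them further ligands and partners as well as downstream genes, had differences of both signs. Of 29 measured genes of Eph and ephrin signalling, 14 were higher and 15 lower, with a median difference of -0.0134 and 0 past the adjusted threshold. An unadjusted p under 0.05 was reached by 5.81% of all genes in either direction and by 2.20% upward, and here by 2, both higher. These were Anks1b, an adaptor of the family that binds Eph receptors (1.00, SE 0.29), and Pick1, a PDZ protein that binds ephrin-B tails (0.35, SE 0.14). The next were Tiam1, an exchange factor for Rac (0.39, SE 0.17), and Rhoa, the GTPase of growth cone collapse (-0.34, SE 0.16). Of 29 measured genes of netrin and RGM signalling, 13 were higher and 16 lower, with a median of -0.0295. Here 0 passed the adjusted threshold and 1, higher, had an unadjusted p under 0.05, so both lists were near the background of both directions. That 1 was Myo10, an unconventional myosin that carries Dcc and neogenin in filopodia (0.85, SE 0.30). Bmpr1b, Flrt2, which is a ligand of Unc5 receptors, and the netrin-G partner family member Lrrc4 came next, with 0.32 (SE 0.14), 0.99 (SE 0.44) and 0.29 (SE 0.14). Flrt2 was at 8.26 in knockdown replicate 3, against 6.70 and 6.97 in the other knockdown arrays and 5.55 to 6.93 in controls.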

How the data were processed

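RNA of 7 sorted samples was measured on 1 Affymetrix array each. The authors deposited log2 values (1.97 to 13.7). The submitters' processing notes name Expression Console 1.2, Affymetrix's software, and RMA, which corrects background, normalizes arrays by quantiles and compresses differences of dim probe sets. Per the labels' protocols, RNA was labelled after whole-transcriptome amplification. No pair of arrays was identical (correlations 0.937 to 0.976, array medians 4.398 to 4.61). No build is named for the probe annotation, and symbols were updated by Entrez identifier through RefSeq GRCm38.p6 (21698 of the 21789 probe sets with 1 symbol matched).

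Knockdown was compared with control over all 19938 genes by limma 3.58.1 in R 4.3.3 (lmFit and eBayes, no covariate, 5 residual and 2.36 prior degrees of freedom), two-sided, with Benjamini-Hochberg adjustment over all genes. Intervals are limma's 95% intervals. For arrays no count depth applies, and their number limits the precision. On simulated data with 200 of 19938 genes changed, the fit recovered 48.2% of changes of 1 log2 unit and 84% of changes of 2. There were 8 false calls per run on average. The simulated noise was independent between genes, whereas gene lists of the measured arrays shifted together, so these rates may not hold for the measured arrays. Recovery of such changes for the guidance genes in the measured arrays was not tested. Their median range over the arrays was 0.91, beside 0.688 over all genes. The members and lists were chosen with earlier results of these data known. Every member is named, with array values for those with an unadjusted p under 0.05 or groups that do not overlap, and for the largest difference in each class. Some further members have array values that were chosen after they were seen. From each pathway list the 4 genes with the smallest p are named. Deviations of arrays with the same replicate number, 1 to 3, correlated at 0.0278, -0.0507 and 0.0716. Arrays with different numbers correlated at -0.196 to 0.14. The labels do not say whether the numbers mark shared litters or days, and so few correlations cannot exclude it.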

Additional observations from a re-analysis of the deposited data

Results flagged for a closer look

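In the 4 control arrays, 1 value of a gene lay far from the other 3 in 5 of 34 tests (the 33 members and Trnp1). The gap to the nearest of the others was then over 0.829 of the whole range, which chance gives in about 1 of 20 groups. Control replicate 4 was the array apart in 4 of the 5, and it also had the highest endothelial, microglial and choroid plexus markers of the controls (1.47, 1.68 and 2.28 log2 units above the control mean). Unc5b was 5.45 there, against 4.36 to 4.46 in the other controls, and its difference without this array was 1.25. Epha2 was 5.27, against 4.49 to 4.60, and its difference turned to 0.14 without it. Ntn4 was 5.57, against 5.96 to 6.04, and differed by -0.34 without it. Efnb1 was 8.48, against 8.72 to 8.76, and differed by -0.22 without it. Efnb3 was 6.60 in control replicate 1, against 5.95 to 5.99, and its difference was 0.33 without that array. The part of the marker differences in these values was not tested.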

How the results depend on the processing

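Under all alternatives run, 0 members and 0 genes passed an adjusted p of 0.05, and the smallest adjusted p was 0.168, without knockdown replicate 2. Of the 33 members, 15 kept their sign under every alternative, Ntn1, Efnb2, Unc5b, Unc5c and Unc5d among them, and Trnp1 did too. The cause of the other moves was not tested. Members at an unadjusted p under 0.05 numbered 1 lower with a robust prior (3.46% of all genes), 1 higher and 4 lower with equal array medians, 1 and 1 after further quantile normalization, and 0 lower after cyclic loess. Members whose groups do not overlap were 0 higher and 3 lower with equal medians (0.833% and 9.94% of all genes; median difference over the members -0.139), 2 lower after quantile (5.48%), after loess (3.89%) and with every probe set on its own (3.08%), 2 and 5 with the replicate number as a block (3 pairs, control 4 left out; 5.39% and 5.67%), and 4 and 6 without knockdown 1 and control 4, where fewer arrays make overlap rarer (9.20% and 9.86% of all genes). With the replicate block Ntn1 differed by 0.62 and Efnb2 by -0.41, and no gene passed. With 1 array left out the counts ranged from 1 to 3 (higher, p), 1 to 4 (lower, p), 1 to 3 (higher, no overlap) and 1 to 5 (lower, no overlap), and the median difference from -0.117 to 0.0803.

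Signs turned with array weights for Epha2 (0.086) and Efna5 (-0.068), with equal medians for Epha1 (-0.087), Efna5 (-0.10), Ntng1 (-0.025), Rgma (-0.091) and Draxin (-0.0092), after quantile for Epha1 (-0.045) and Efna5 (-0.10), and after loess for Epha1 (-0.027) and Efna5 (-0.034). They turned with the replicate block for Epha2 (0.14), Rgma (-0.096) and Rgmb (0.039), and without knockdown 1 and control 4 for Epha1 (-0.0025), Ephb4 (-0.14), Unc5a (-0.0043), Rgma (-0.13) and Rgmb (0.22). With 1 array left out the 16 members whose sign turned ranged as follows: Epha2 from -0.18 to 0.14, Epha5 from -0.33 to 0.0077, Epha10 from -0.15 to 0.0095, Ephb1 from -0.078 to 0.99, Ephb3 from -0.17 to 0.11, Ephb4 from -0.10 to 0.42, Ephb6 from -0.32 to 0.08, Efna3 from -0.32 to 0.083, Efna5 from -0.36 to 0.42, Efnb3 from -0.22 to 0.41, Dcc from -0.29 to 0.09, Neo1 from -0.0025 to 0.50, Unc5a from -0.09 to 0.65, Rgma from -0.096 to 0.12, Rgmb from -0.34 to 0.11 and Draxin from -0.28 to 0.35.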
